A study of Homo sapiens with 22 samples.

Results

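ZBTB genes encode transcription factors that join an N-terminal BTB/POZ domain to C2H2 zinc fingers (C2H2-ZF). They were followed here in HEK293T cells in which ZNF598, which senses ribosome collisions and ubiquitinates ribosomal proteins, was knocked down. The members were the protein-coding genes whose GENCODE symbol is ZBTB with a number and at most 1 letter, each represented by the protein-coding transcript with the highest mean count over the 0-10 h libraries and kept when that transcript had a mean of at least 0.5 CPM (counts scaled to library size). Of 41 such genes in the files, 39 were members, out of 11659 protein-coding genes that passed the same row rule. ZBTB49 (0.666 CPM) and ZBTB20 (0.799 CPM) lay just inside the limit. ZBTB7C (0.241 CPM) and ZBTB32 (0.00360 CPM), a gene known from lymphocytes, lay below it and were not tested.

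In these proteins the fingers read DNA and the BTB domain forms dimers and recruits corepressor complexes or the CUL3 ubiquitin ligase, so most family members are known as repressors. Several are known as switches of cell fate. ZBTB7B directs T cells to the CD4 lineage, ZBTB16 acts in innate-like T cells, ZBTB46 marks dendritic cells, ZBTB18 acts in cortical neurons, and ZBTB7A silences fetal globin. ZBTB4, ZBTB33 and ZBTB38 bind methylated DNA, and ZBTB17, the partner of MYC also called MIZ1, controls cell cycle inhibitors. The study reports ribosome stalling on some tandem C2H2-ZF sequences, and the comparison asked whether loss of ZNF598 alters the level or decay of ZBTB mRNAs.

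BRIC-Seq follows decay by labelling RNA with bromouridine (BrU), a uridine analogue, and capturing the labelled RNA with an antibody during a chase without BrU. HEK293T, a human embryonic kidney cell line carrying the SV40 large T antigen, expressed a control shRNA (shControl) or an shRNA against ZNF598 (shZNF598). All cells received 150 µM BrU for 24 h, and RNA was taken after chases of 0, 2, 4, 6, 10 and 24 h. There were 22 libraries, 2 per shRNA at each time from 0 to 10 h and 1 per shRNA at 24 h. The labels do not say whether the 2 libraries of a group came from separate cultures, so the p-values below measure only the spread of these libraries. For the straight lines fitted to the chase below, that spread also includes departures of a gene's course from its line. The labels name neither the hairpin sequences nor whether the cells were clones, and the 24 h libraries entered only the 0-24 h windows of the half-life rule and of an alternative slope fit.

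Total counts were 52352359 to 96963584 in the 20 libraries of 0-10 h and 21220829 and 40157613 at 24 h, and a member's own row held 17 to 2678 counts per 0-10 h library, with a median of 180.0. Levels are CPM after TMM scaling, which sets the bulk of every library to a common level, so that a falling level means a fall relative to the bulk. The targeted ZNF598 transcript was at 7.37 ± 1.08 CPM (SD, n = 2) in shControl and 0.873 ± 0.200 CPM (SD, n = 2) in shZNF598 at 0 h, and over 0-10 h it was 8.30-fold lower (log2 difference -3.05, SE 0.0864, adjusted p = 2.62e-20, edgeR quasi-likelihood test). At 24 h, in 1 library each, the gap was smaller, with ZNF598 at 4.69 CPM in shControl and 2.29 CPM in shZNF598. Of 5 genes known in HEK293T cells, VIM (92.7 to 216 CPM) and NEFL (5.62 to 13.9 CPM) were clearly present, NEFM ranged from 0.661 to 3.33 CPM, and LHX1 and PAX2 were near 0. Averaged over 0-10 h, NEFM was lower in shZNF598 (log2 difference -0.79, adjusted p = 3.2e-07) and VIM higher (0.15, adjusted p = 0.0166), and their part in the results below was not tested. Of 6 markers of blood, liver, islet, endothelial and fibroblast cells, none exceeded 0.120 CPM in any library. The shControl libraries of 0 h stood apart from each other, with a median absolute log2 difference of 0.238 over the members against 0.0769 to 0.193 in the other pairs. The slope counts in shControl and the 0 h counts are also given without each of them, while the percentages of the 0 h level below rest on the mean of both.

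The protein products of the 39 transcripts held 1 to 13 matches to the C2H2 finger pattern, with a median of 4. The coding sequences of the fingers of ZBTB7A, ZBTB18 and ZBTB8A are shown, since ZBTB7A had the largest slope difference between the shRNAs and ZBTB18 and ZBTB8A had the lowest and the highest averaged difference. They come from the GENCODE 44 transcripts (GRCh38), are written 5′ to 3′, and have the codons of the zinc-binding pair of cysteines and pair of histidines in capitals.
ZBTB7A finger 1 (chr19:4054021-4054083, minus strand): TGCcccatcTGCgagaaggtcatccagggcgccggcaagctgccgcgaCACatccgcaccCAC
ZBTB7A finger 2 (chr19:4048211-4053999, minus strand): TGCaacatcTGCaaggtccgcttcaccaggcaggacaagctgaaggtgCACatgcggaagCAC
ZBTB7A finger 3 (chr19:4048127-4048189, minus strand): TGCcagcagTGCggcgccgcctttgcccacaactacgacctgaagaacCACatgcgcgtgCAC
ZBTB18 finger 1 (chr1:244054915-244054977, plus strand): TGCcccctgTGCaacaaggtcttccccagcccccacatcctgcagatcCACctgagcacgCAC
ZBTB18 finger 2 (chr1:244055035-244055097, plus strand): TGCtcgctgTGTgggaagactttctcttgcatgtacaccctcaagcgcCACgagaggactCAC
ZBTB18 finger 3 (chr1:244055119-244055181, plus strand): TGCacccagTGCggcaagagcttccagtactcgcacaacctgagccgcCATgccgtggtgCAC
ZBTB18 finger 4 (chr1:244055203-244055268, plus strand): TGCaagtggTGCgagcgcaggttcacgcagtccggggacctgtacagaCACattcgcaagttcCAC
ZBTB8A finger 1 (chr1:32595080-32595142, plus strand): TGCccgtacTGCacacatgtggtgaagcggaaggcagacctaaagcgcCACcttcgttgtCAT
ZBTB8A finger 2 (chr1:32595164-32600092, plus strand): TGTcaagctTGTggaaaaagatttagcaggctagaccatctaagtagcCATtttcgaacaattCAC

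The ZBTB7A matches lie at residues 384-404, 412-432 and 440-460, and the ZBTB18 matches at 381-401, 421-441, 449-469 and 477-498. The ZBTB8A matches lie at 284-304 and 312-333. The ranges of ZBTB7A finger 2 and ZBTB8A finger 2 contain an intron, which is left out of the printed sequence, while the other 7 each lie within 1 exon. G or C filled 92.6% of the third codon positions in the ZBTB7A coding sequence, 66.5% in ZBTB18 and 37.9% in ZBTB8A.

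At the end of labelling, members were expressed at low to moderate levels. Per kilobase of transcript, the median member was at 1.36 CPM in shControl at 0 h, against 2.04 CPM for all protein-coding genes. The highest were ZBTB18 (3.83 CPM per kb), ZBTB11 (3.42 CPM per kb), a factor linked to mitochondrial gene expression, and ZBTB10 (3.15 CPM per kb), known for binding telomeric repeats. The lowest were ZBTB20 (0.0510 CPM per kb), a liver and hippocampal repressor, and ZBTB16 (0.156 CPM per kb). The ZBTB20 level is uncertain, since 56.1% of its exonic length also lies in exons of other genes on its strand, and its transcript carries a 24507-nt 3′ UTR. ZBTB20 was at 1.74 and 1.03 CPM at 0 h, 0.817 and 0.838 at 2 h, 0.684 and 0.694 at 4 h, 0.474 and 0.384 at 6 h, and 0.634 and 0.572 at 10 h in the shControl libraries. In the shZNF598 libraries it was at 1.07 and 1.14 CPM at 0 h, 0.92 and 0.80 at 2 h, 0.623 and 0.455 at 4 h, 0.568 and 0.483 at 6 h, and 0.61 and 0.429 at 10 h, and the groups overlapped at all times except 4 and 6 h.

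ZBTB mRNAs fell quickly relative to the rest of the library in the early chase. In shControl the median member was at 62.2% of its 0 h level at 2 h, 34.2% at 4 h, 29.2% at 6 h, 41.2% at 10 h and 68.6% at 24 h, while the median protein-coding gene was at 97.7%, 95.4%, 85.0%, 68.6% and 77.4%. In shZNF598 the members' medians were 64.1%, 36.2%, 31.3%, 40.7% and 71.1%. At 4 h, 31 of 39 members (79.5%) were below 50% of their 0 h level in each shRNA, against 15.9% of protein-coding genes in shControl and 15.7% in shZNF598.

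After 6 h the relative levels of most members turned upward. From 6 to 10 h the mean rose for 34 of 39 members in shControl and 35 of 39 in shZNF598, against 49.0% and 49.99% of protein-coding genes, and both 10 h libraries lay above both 6 h libraries for 28 (71.8%) and 30 (76.9%) members against 35.9% and 34.1%. From 10 to 24 h, with 1 library each at 24 h, the level rose for 36 of 39 members in shControl and 39 of 39 in shZNF598. Among protein-coding genes 59.0% and 60.8% rose over that interval. All of these levels are relative to the library.

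**Figure D1:**
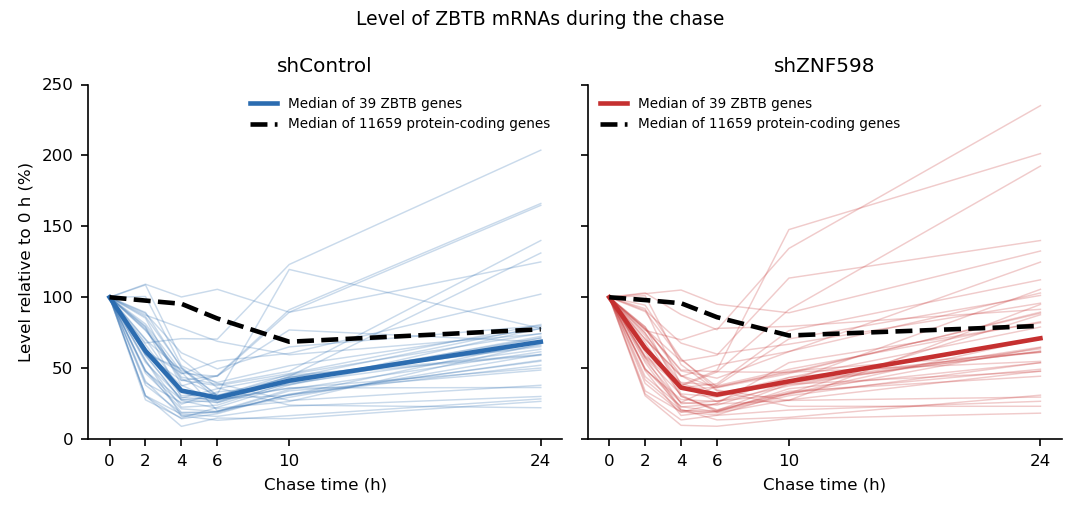
Level of each ZBTB mRNA relative to its own 0 h mean (y axis, %) against chase time (x axis, h) in shControl (left) and shZNF598 (right). Thin lines are single genes, thick lines the median of 39 ZBTB genes and dashed lines the median of 11659 protein-coding genes, and the members' median falls to 29.2% and 31.3% at 6 h before it rises.

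The fastest early fall was that of ZBTB6, whose product is little studied. In shControl ZBTB6 was at 6.25 and 5.64 CPM at 0 h, 1.67 and 1.96 at 2 h, 0.532 and 0.534 at 4 h, 0.934 and 0.828 at 6 h, and 1.08 and 0.631 at 10 h. In the knockdown it was at 7.54 and 7.4 CPM at 0 h, 2.0 and 2.57 at 2 h, 0.634 and 0.816 at 4 h, 0.737 and 0.615 at 6 h, and 0.94 and 1.22 at 10 h. The knockdown libraries were higher without overlap at 0, 2 and 4 h and lower at 6 h, and at 4 h 8.97% of the 0 h level was left in shControl and 9.70% in shZNF598. Some members kept to another course. ZBTB44 stayed near its 0 h level, at 100.2% at 4 h and 89.5% at 10 h in shControl, and ZBTB41 and ZBTB38 fell on to 10 h, where 24% and 27.2% of their 0 h levels were left, with no rise from 6 to 10 h.

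A linear slope over 0-10 h, in log2 units per hour, was fitted across all 96402 tested transcripts in a model whose terms were the shRNA, the chase time in hours and the interaction. In shControl 32 of 39 members had a slope below 0 with an adjusted p below 0.05 and none had a slope above 0 that passed, while 50.4% of protein-coding genes and 38.8% of all transcripts passed with a negative slope. In shZNF598 28 of 39 members passed, all with a negative slope, against 47.5% and 36.5%. The median member slope was -0.134 in shControl and -0.131 in shZNF598, and that of all protein-coding genes was -0.0550 and -0.0470. Because the late rise bends these courses, the line understates the early fall. Over 0-4 h alone, 37 of 39 members fell in each shRNA, with medians of -0.390 and -0.371, and ZBTB44 and ZBTB12 did not pass. In that window 20.31% and 19.99% of all transcripts fell.

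Leaving out the 0 h libraries lowered these counts, with 11 of 39 members falling in shControl and 8 in shZNF598, against 35.16% and 32.83% of all transcripts. Without 0 h the members' shares lay below those of all transcripts, whereas over 0-10 h they lay above them, and neither difference in shares was tested. The number in shControl went from 32 to 20 without replicate 1 of 0 h, to 22 without replicate 2 of 0 h and to 22 with DESeq2. With DESeq2, 34.45% of all transcripts fell in shControl, and for the fits without a 0 h replicate that share is not given.

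The 5 most negative shControl slopes belonged to ZBTB6 at -0.286 (SE 0.0735, adjusted p = 0.00163), ZBTB21 at -0.280 (SE 0.0531, adjusted p = 8.64e-05), ZBTB41 at -0.237 (SE 0.027, adjusted p = 1.22e-07), ZBTB45 at -0.213 (SE 0.0502, adjusted p = 0.000755) and ZBTB38 at -0.210 (SE 0.0245, adjusted p = 1.7e-07). ZBTB41 has 13 finger matches. In shControl it was at 11.5 and 8.26 CPM at 0 h, 10.5 and 11 at 2 h, and 5.28 and 5.9 at 4 h. It was at 3.82 and 3.31 CPM at 6 h and 2.25 and 2.48 at 10 h. In shZNF598 ZBTB41 was at 9.38 and 10.2 CPM at 0 h, 9.08 and 10.7 at 2 h, 4.96 and 5.32 at 4 h, 3.89 and 2.77 at 6 h, and 2.21 and 2.31 at 10 h. Every 10 h library lay below every 4 h library of this gene, and the shRNAs overlapped at all 5 times. ZBTB45 was at 1.7 and 2.85 CPM at 0 h, 1.34 and 1.37 at 2 h, 0.608 and 0.627 at 4 h, 0.501 and 0.484 at 6 h, and 0.634 and 0.572 at 10 h in shControl. The shZNF598 libraries were at 2.15 and 2.31 CPM at 0 h, 1.2 and 1.37 at 2 h, 0.552 and 0.843 at 4 h, 0.323 and 0.527 at 6 h, and 0.676 and 0.906 at 10 h, and the shRNAs were separate only at 10 h, where shZNF598 was higher. ZBTB38, a reader of methylated DNA, was at 9.03 and 7.06 CPM at 0 h, 7.88 and 8.3 at 2 h, 3.94 and 4.39 at 4 h, 3.46 and 2.85 at 6 h, and 2.26 and 2.11 at 10 h in shControl. With ZNF598 knocked down it was at 8.2 and 8.4 CPM at 0 h, 7.18 and 8.49 at 2 h, 4.69 and 4.72 at 4 h, 3.37 and 2.37 at 6 h, and 2.38 and 2.15 at 10 h, separate from shControl only at 4 h.

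At the other end were ZBTB12 with a shControl slope of 0.042 (SE 0.0309, adjusted p = 0.231), ZBTB16 with 0.029 (SE 0.0588, adjusted p = 0.668) and ZBTB2 with -0.0056 (SE 0.0446, adjusted p = 0.916). ZBTB16, a fusion partner of RARA in promyelocytic leukaemia, was at 1.47 and 1.19 CPM at 0 h, 0.755 and 0.882 at 2 h, 0.532 and 0.28 at 4 h, 0.46 and 0.384 at 6 h, and 1.82 and 1.36 at 10 h in shControl. It was at 0.763 and 0.999 CPM at 0 h, 0.552 and 0.578 at 2 h, 0.215 and 0.455 at 4 h, 0.384 and 0.472 at 6 h, and 1.22 and 1.38 at 10 h in shZNF598. In both, the 4 and 6 h libraries were lowest and the 10 h mean was above the 0 h mean. ZBTB2 was at 2.76 and 2.56 CPM at 0 h, 1.56 and 1.61 at 2 h, 1.11 and 1.08 at 4 h, 1.15 and 1.23 at 6 h, and 2.74 and 2.11 at 10 h in shControl and at 3.07 and 2.68 CPM at 0 h, 2.0 and 1.66 at 2 h, 1.23 and 0.923 at 4 h, 1.2 and 1.53 at 6 h, and 2.56 and 2.69 at 10 h in shZNF598, with the same fall and return. ZBTB12 was at 0.987 and 0.994 CPM at 0 h, 0.829 and 0.514 at 2 h, 0.71 and 0.694 at 4 h, 0.771 and 0.626 at 6 h, and 1.47 and 0.966 at 10 h in shControl and at 1.03 and 0.968 CPM at 0 h, 1.01 and 1.05 at 2 h, 0.909 and 0.843 at 4 h, 0.661 and 0.878 at 6 h, and 1.2 and 1.48 at 10 h in shZNF598, a course with a small fall. All 3 slopes change sign with the window or scaling, and over 0-4 h those of ZBTB16 and ZBTB2 were -0.423 and -0.329.

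Apparent half-lives were computed by the study's rule, the regression window with the best R² among 0-4, 0-6, 0-10 and 0-24 h, without its spike-in factor, so they are relative to the library. They were reliable (R² above 0.9 and between 0 and 24 h in both shRNAs) for 35 of 39 members, all but ZBTB11, ZBTB12, ZBTB17 and ZBTB44. The median member half-life came to 2.53 h (shControl) and 2.74 h (shZNF598), against 3.82 h and 3.93 h for 3275 protein-coding genes. Values in shControl ran from 1.16 h (ZBTB6) to 5.78 h (ZBTB40), and the upper end moved to 11.3 h with TMM scaling, 7.22 h without replicate 1 and 18.7 h without replicate 2. The half-life was longer in shZNF598 for 21 of 35 members, and the median log2 ratio was 0.050 against 0.045 for protein-coding genes, of which 56.5% were longer. The ratio was largest for ZBTB7A (2.08 h to 3.14 h, 1.51-fold) and smallest for ZBTB22 (3.81 h to 2.48 h, 0.652-fold), for which the rule chose another window in each shRNA. These values have no replicate error and a fixed 0-10 h window left only 2 members.

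**Figure D2:**
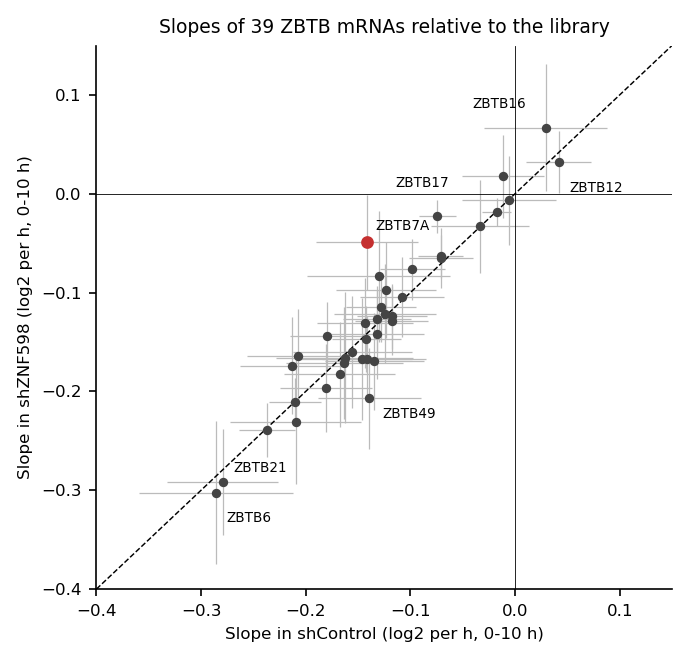
Slope of each ZBTB mRNA over 0-10 h in shControl (x axis, log2 per h) and shZNF598 (y axis, log2 per h), with the SE of each as bars, the line of equality dashed and ZBTB7A in red. Most of the 39 points lie below 0 on both axes and ZBTB7A lies above the line.

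The slope difference (shZNF598 minus shControl) tests whether knockdown changed the relative decay. No member passed an adjusted p of 0.05 in edgeR, and 1 of 39 passed an unadjusted p of 0.05, whereas 0.0799% of all transcripts and 0.112% of protein-coding genes passed the adjusted and 5.1% and 4.94% the unadjusted threshold. DESeq2 called no member either, with none at an unadjusted p below 0.05, although it gave an adjusted p for only 15 of 39 members. The members' slope differences had a median of -0.0010 and ranged from -0.068 (ZBTB49) to 0.092 (ZBTB7A), beside a median of 0.0028 for protein-coding genes. The SEs ran from 0.0197 (ZBTB44) to 0.104 (ZBTB6), and they include departures of each course from the line. Over 0-4 h no transcript passed the adjusted threshold in edgeR. The lowest unadjusted p among members there were 0.0642 for ZBTB7A (0.176, SE 0.0891), 0.0717 for ZBTB42 (-0.176, SE 0.0916) and 0.0791 for ZBTB22 (-0.153, SE 0.0820).

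ZBTB7A, a regulator of blood lineages that the study followed up, had the largest positive slope difference, 0.092 (SE 0.0680, unadjusted p = 0.188). In that follow-up, by qRT-PCR at early times after transcription was blocked with Actinomycin D, the study reported similar decay with and without ZNF598 knockdown. For C2H2-ZF transcripts as a class, the study's own BRIC-Seq half-lives, which used the spike-in factor, tended to be longer with the knockdown. ZBTB7A (ENST00000322357.9, chr19:4043303-4066899, minus strand) was at 3.74 and 2.36 CPM at 0 h, 0.99 and 1.43 at 2 h, 0.912 and 0.654 at 4 h, 0.961 and 0.706 at 6 h, and 1.04 and 1.14 at 10 h in shControl. In shZNF598 it was at 2.63 and 2.22 CPM at 0 h, 1.41 and 1.44 at 2 h, 1.0 and 0.936 at 4 h, 0.937 and 0.90 at 6 h, and 1.47 and 1.96 at 10 h. The shZNF598 libraries were higher without overlap at 4 and 10 h and overlapped shControl at 0, 2 and 6 h. Relative to 0 h, 25.7% was left at 4 h in shControl and 40.0% in shZNF598, and at 24 h, in 1 library each, 50.1% and 101.3%. Its 0 h values rest on the shControl pair that stood apart, and leaving out replicate 1 moved its 0 h log2 difference from -0.33 to 0.046. The averaged difference was 0.19 (SE 0.107, adjusted p = 0.229), and without the 0 h libraries it was 0.32 and passed (adjusted p = 0.0429), as it did without replicate 1 of shControl at 0 h (0.26).

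Next came ZBTB17 with 0.052 (SE 0.0245, unadjusted p = 0.0470) and ZBTB14 with 0.047 (SE 0.0951, unadjusted p = 0.629). ZBTB17 was at 4.75 and 5.69 CPM at 0 h, 4.75 and 4.38 at 2 h, 4.09 and 4.08 at 4 h, 3.83 and 3.37 at 6 h, and 3.03 and 3.17 at 10 h in shControl. In the knockdown it was at 5.05 and 4.85 CPM at 0 h, 3.97 and 3.62 at 2 h, 3.28 and 3.65 at 4 h, 3.55 and 4.18 at 6 h, and 3.17 and 4.7 at 10 h. Its knockdown libraries were below the control libraries at 2 and 4 h and overlapped them at the other times. In the other direction, ZBTB49 had a slope difference of -0.068 (SE 0.0726, unadjusted p = 0.360), ZBTB24 of -0.035 (SE 0.0671, unadjusted p = 0.604) and ZBTB33 of -0.026 (SE 0.0597, unadjusted p = 0.670). ZBTB49 was at 1.12 and 1.25 CPM at 0 h, 0.545 and 0.592 at 2 h, 0.317 and 0.267 at 4 h, 0.447 and 0.343 at 6 h, and 0.514 and 0.394 at 10 h in shControl and at 1.65 and 1.28 CPM at 0 h, 0.71 and 0.75 at 2 h, 0.276 and 0.388 at 4 h, 0.353 and 0.373 at 6 h, and 0.346 and 0.453 at 10 h in shZNF598. It held 17 to 106 counts per library, and its groups were separate at 0 and 2 h only. ZBTB24, mutated in an immunodeficiency with centromeric instability, was at 10.9 and 11.2 CPM at 0 h, 6.1 and 6.15 at 2 h, 2.41 and 2.56 at 4 h, 2.64 and 2.66 at 6 h, and 4.37 and 4.44 at 10 h in shControl. With shZNF598 its libraries were at 11.2 and 11.5 CPM at 0 h, 6.51 and 7.39 at 2 h, 2.73 and 2.93 at 4 h, 3.17 and 2.92 at 6 h, and 4.12 and 3.05 at 10 h, higher without overlap at 2, 4 and 6 h and lower at 10 h. The sign turned for ZBTB17 and ZBTB33 over 0-4 h, for ZBTB24 over 0-4 and 0-6 h, and for ZBTB49 over 0-24 h.

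At 0 h, the end of labelling, no member differed between the shRNAs at an adjusted p below 0.05 in edgeR or in DESeq2, where 0.344% of all transcripts and 0.686% of protein-coding genes passed in edgeR. At an unadjusted p below 0.05 there were 5 of 39 in edgeR and 4 in DESeq2, against 9.86% and 11.8% of transcripts and protein-coding genes. The edgeR count depended on single libraries, being 11 of 39 without replicate 1 and also without replicate 2 of shControl at 0 h. It was 2 of 39 without replicate 1 of shZNF598 at 0 h, with no member past the adjusted threshold in these 3 fits. The share of all transcripts at the unadjusted threshold was not counted in these fits, so the member counts there have no background. The largest log2 differences were -0.67 for ZBTB46 (SE 0.20, adjusted p = 0.178), -0.59 for ZBTB16 (SE 0.258, adjusted p = 0.443) and -0.38 for ZBTB18 (SE 0.114, adjusted p = 0.181) on the lower side. On the higher side they were 0.43 for ZBTB8A (SE 0.15, adjusted p = 0.307), 0.33 for ZBTB6 (SE 0.156, adjusted p = 0.492) and 0.31 for ZBTB49 (SE 0.205, adjusted p = 0.665). In bulk RNA, less RNA per cell and fewer cells expressing a gene cannot be told apart.

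Averaged over the 5 chase times, with 20 libraries behind each value, ZBTB members passed in both directions, as did protein-coding genes at large. The level differed for 12 of 39 members (30.8%), against 19.9% of all transcripts and 26.5% of protein-coding genes. It was higher in shZNF598 for 8 members (ZBTB1, ZBTB8A, ZBTB11, ZBTB14, ZBTB21, ZBTB34, ZBTB40 and ZBTB43), where 10.5% of transcripts and 14.3% of protein-coding genes rose, and lower for 4 (ZBTB10, ZBTB18, ZBTB22 and ZBTB46), where 9.44% and 12.2% fell. The share of members that fell, 10.26%, lay near its background values and the share that rose lay above its own, and neither difference in shares was tested. The median log2 difference was 0.076 over members and 0.021 over protein-coding genes. DESeq2 called the same 12 members.

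Libraries of the shRNAs did not overlap, in the same direction, at 3 or more of 5 times for 17 members (43.6%), at 4 or more for 7 (17.95%), and at all 5 for 2, ZBTB10 and ZBTB18. For protein-coding genes the shares were 35.5%, 17.6% and 6.58%.

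**Figure D3:**
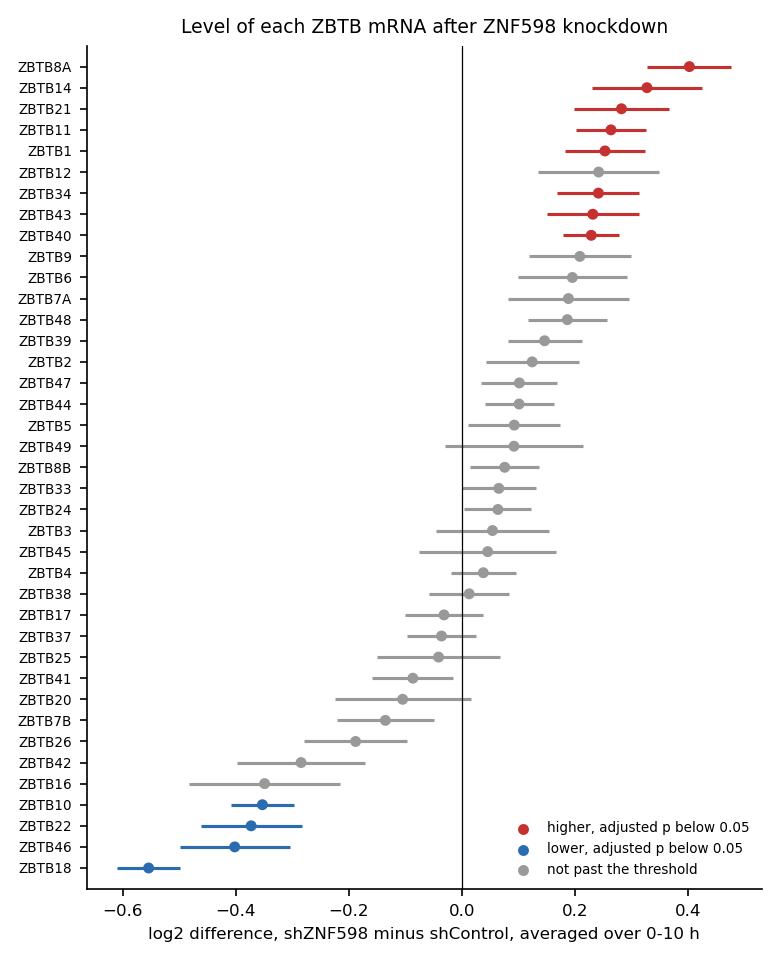
log2 difference of each of the 39 ZBTB mRNAs between shZNF598 and shControl, averaged over 0-10 h (x axis), with the SE as bars and genes ordered by value (y axis). Red and blue points passed an adjusted p of 0.05, and the values run from -0.55 for ZBTB18 to 0.40 for ZBTB8A.

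Among the neural and developmental members (ZBTB12, ZBTB14, ZBTB18, ZBTB42, ZBTB45 and ZBTB47), 1 rose and 1 fell. ZBTB18 (ENST00000358704.4, chr1:244051283-244057476, plus strand), a repressor needed for cortical neuron differentiation, had the largest difference of the family. It was at 14 and 15.4 CPM at 0 h, 10.0 and 9.63 at 2 h, 4.59 and 5.07 at 4 h, 3.73 and 3.81 at 6 h, and 6.13 and 5.4 at 10 h in shControl. The shZNF598 libraries were at 11.3 and 11.3 CPM at 0 h, 5.59 and 5.58 at 2 h, 2.68 and 3.16 at 4 h, 2.9 and 2.5 at 6 h, and 4.52 and 4.48 at 10 h. All 10 knockdown libraries were below the control libraries of the same time, and the averaged log2 difference was -0.55 (SE 0.0555, adjusted p = 3.05e-08), or 1.47-fold lower. At 24 h, outside the test, ZBTB18 was at 9.33 CPM in shControl and 6.98 CPM in shZNF598. The slopes over 0-10 h were -0.143 and -0.131, and the groups were separate from 0 h on. At 2 h, 66.6% of the 0 h level was left in shControl and 49.4% in shZNF598, and at 10 h 39.15% and 39.8%. Over 0-4 h its slope difference was -0.085 (SE 0.0481, unadjusted p = 0.0944, edgeR quasi-likelihood test) and did not pass.

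ZBTB14, a factor that binds GC-rich motifs, was at 2.6 and 2.76 CPM at 0 h, 0.681 and 0.804 at 2 h, 0.317 and 0.48 at 4 h, 0.636 and 0.565 at 6 h, and 0.942 and 1.1 at 10 h in shControl and at 2.81 and 2.65 CPM at 0 h, 1.21 and 0.935 at 2 h, 0.552 and 0.481 at 4 h, 0.661 and 0.713 at 6 h, and 1.32 and 1.62 at 10 h in shZNF598. It was higher without overlap from 2 to 10 h and overlapped at 0 h, with an averaged difference of 0.33 (SE 0.0981, adjusted p = 0.0189). The call was lost without replicate 1 of shControl at 4 h, and 14.8% of its exonic length lies opposite LINC00667, from which it cannot be told apart if counting ignored strand. Values for the other 4 were 0.24 for ZBTB12, -0.28 for ZBTB42, 0.046 for ZBTB45 and 0.10 for ZBTB47, none of which passed (lowest adjusted p = 0.0760, ZBTB42).

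Of the telomere and DNA damage members (ZBTB1, ZBTB10, ZBTB40 and ZBTB48), 2 rose and 1 fell. ZBTB10 (ENST00000430430.5) was at 35.7 and 28 CPM at 0 h, 24.9 and 24.9 at 2 h, 12.7 and 13.8 at 4 h, 13.7 and 10.3 at 6 h, and 14.7 and 14.7 at 10 h in shControl. With ZNF598 knocked down it was at 27.1 and 27 CPM at 0 h, 20.2 and 20.1 at 2 h, 9.84 and 10.2 at 4 h, 9.02 and 8.1 at 6 h, and 11.2 and 12.3 at 10 h. The knockdown libraries were lower at all 5 times, and the averaged difference was -0.35 (SE 0.056, adjusted p = 4.73e-05), 1.28-fold lower. ZBTB40 (ENST00000404138.5, chr1:22451851-22531157, plus strand), found at telomeres and known from bone density genetics, was at 20.2 and 17.8 CPM at 0 h, 16.5 and 17.1 at 2 h, 11.8 and 11.3 at 4 h, 10.0 and 8.72 at 6 h, and 13.3 and 11.4 at 10 h in shControl. In shZNF598 it was at 21.4 and 20.1 CPM at 0 h, 18.8 and 18.8 at 2 h, 14.3 and 13.8 at 4 h, 12.8 and 12.1 at 6 h, and 13.8 and 13.9 at 10 h. It was higher without overlap from 2 to 10 h, with an averaged difference of 0.23 (SE 0.0498, adjusted p = 0.00171).

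ZBTB1, needed for lymphocyte development and translesion synthesis, was at 7.11 and 6.96 CPM at 0 h, 3.44 and 4.17 at 2 h, 1.82 and 2.24 at 4 h, 2.77 and 2.22 at 6 h, and 2.98 and 3.35 at 10 h in shControl and at 7.23 and 8.1 CPM at 0 h, 4.59 and 5.16 at 2 h, 2.87 and 2.51 at 4 h, 3.07 and 2.52 at 6 h, and 4.14 and 3.22 at 10 h in shZNF598. The knockdown libraries were higher without overlap at 0, 2 and 4 h and overlapped at 6 and 10 h. Its averaged difference was 0.25 (SE 0.0708, adjusted p = 0.0123), but 2 of its 4 tested protein-coding transcripts passed and its MANE Select transcript did not. Of the exonic length of ZBTB1, 6.02% lies opposite exons of ZBTB25, from which it cannot be told apart if counting ignored strand. ZBTB48, a telomere length regulator, was at 0.19 (SE 0.0698, adjusted p = 0.0589).

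Of the 8 blood cell and lymphocyte members (ZBTB7A, ZBTB7B, ZBTB16, ZBTB17, ZBTB20, ZBTB24, ZBTB25 and ZBTB46), 1 fell and none rose, and the values ran from -0.40 to 0.19. ZBTB46 (ENST00000395104.5, chr20:63743668-63790923, minus strand), the dendritic cell factor, was at 1.95 and 2.16 CPM at 0 h, 1.34 and 1.22 at 2 h, 0.988 and 0.92 at 4 h, 0.744 and 1.07 at 6 h, and 2.07 and 1.6 at 10 h in shControl. In the knockdown it was at 1.29 and 1.28 CPM at 0 h, 0.96 and 1.05 at 2 h, 0.705 and 0.709 at 4 h, 0.645 and 0.878 at 6 h, and 1.2 and 1.72 at 10 h. It was lower without overlap at 0, 2 and 4 h, and the averaged difference was -0.40 (SE 0.0971, adjusted p = 0.00426), 1.32-fold lower. It is a low gene, with 42 to 167 counts per library, and 16.4% of its exonic length lies opposite SLC2A4RG or ZBTB46-AS2. ZBTB16 had a value near that of ZBTB46, -0.35 (SE 0.133, adjusted p = 0.0636), which missed the threshold. ZBTB7B, ZBTB17, ZBTB20, ZBTB24 and ZBTB25 ran from -0.14 to 0.064, none past the threshold.

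The 3 methyl-CpG binding members gave averaged differences of 0.038 (ZBTB4), 0.065 (ZBTB33, also called Kaiso) and 0.013 (ZBTB38), none of which passed (lowest adjusted p = 0.528). ZBTB33 was at 17.7 and 13.7 CPM at 0 h, 13 and 13.7 at 2 h, 5.49 and 6.44 at 4 h, 4.82 and 3.43 at 6 h, and 7.09 and 6.43 at 10 h in shControl and at 16.9 and 16.4 CPM at 0 h, 14.3 and 16.4 at 2 h, 6.58 and 6.03 at 4 h, 4.86 and 3.96 at 6 h, and 6.2 and 6.29 at 10 h in shZNF598. The shControl slopes of this group were more negative than those of most protein-coding genes, from -0.210 to -0.142, and all 3 passed.

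The other 18 members (ZBTB2, ZBTB3, ZBTB5, ZBTB6, ZBTB8A, ZBTB8B, ZBTB9, ZBTB11, ZBTB21, ZBTB22, ZBTB26, ZBTB34, ZBTB37, ZBTB39, ZBTB41, ZBTB43, ZBTB44 and ZBTB49) are less studied, and 5 rose and 1 fell. ZBTB8A (ENST00000373510.9, chr1:32539427-32605941, plus strand) had the largest rise. It was at 4.39 and 4.65 CPM at 0 h, 3.6 and 3.6 at 2 h, 1.94 and 2.01 at 4 h, 1.42 and 2.06 at 6 h, and 2.06 and 2.27 at 10 h in shControl. The shZNF598 libraries were at 6.48 and 5.65 CPM at 0 h, 4.68 and 4.92 at 2 h, 2.66 and 2.78 at 4 h, 2.58 and 1.81 at 6 h, and 2.64 and 2.96 at 10 h. The knockdown libraries were higher at 0, 2, 4 and 10 h and overlapped at 6 h, and the averaged difference was 0.40 (SE 0.0741, adjusted p = 0.000299), 1.32-fold higher. At 24 h the order was the other way, 6.33 CPM in shControl and 5.43 CPM in shZNF598 in 1 library each. The value is uncertain in that 25.2% of the exonic length of ZBTB8A lies in same-strand exons of ENSG00000254553 or ZBTB8OS, whose reads cannot be told apart from its own.

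ZBTB21 (ENST00000310826.10, chr21:41986831-42010360, minus strand) was at 14.8 and 11 CPM at 0 h, 6.61 and 7.74 at 2 h, 2.18 and 2.05 at 4 h, 1.72 and 1.7 at 6 h, and 2.64 and 1.62 at 10 h in shControl. With ZNF598 knocked down it was at 15.1 and 15.1 CPM at 0 h, 7.82 and 9.45 at 2 h, 3.36 and 2.94 at 4 h, 2.38 and 1.69 at 6 h, and 2.38 and 2.24 at 10 h. It was higher without overlap at 0, 2 and 4 h, with an averaged difference of 0.28 (SE 0.0838, adjusted p = 0.0178). The call was lost without replicate 1 of shZNF598 at 6 h or replicate 2 of shControl at 10 h. ZBTB11 was at 20.9 and 17.7 CPM at 0 h, 14 and 16.5 at 2 h, 5.6 and 5.78 at 4 h, 6.12 and 4.6 at 6 h, and 8.02 and 9.07 at 10 h in shControl. In shZNF598 it was at 23.2 and 22.8 CPM at 0 h, 17.7 and 18.7 at 2 h, 7.13 and 7.5 at 4 h, 7.77 and 5.87 at 6 h, and 9.07 and 9.61 at 10 h. Its knockdown libraries were higher at 0, 2, 4 and 10 h, the averaged difference was 0.26 (SE 0.0616, adjusted p = 0.00327), and 9.33% of its exonic length lies opposite ZBTB11-AS1.

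ZBTB22 was the member of this group that fell. It was at 4.1 and 5.59 CPM at 0 h, 3.75 and 4.11 at 2 h, 2.48 and 2.11 at 4 h, 0.866 and 1.07 at 6 h, and 1.35 and 1.5 at 10 h in shControl. In the knockdown it was at 4.13 and 3.78 CPM at 0 h, 3.18 and 2.58 at 2 h, 1.02 and 1.36 at 4 h, 0.737 and 0.856 at 6 h, and 1.3 and 1.76 at 10 h. It was lower without overlap at 2, 4 and 6 h, and the averaged difference was -0.37 (SE 0.0893, adjusted p = 0.00394), 1.29-fold lower.

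ZBTB34 and ZBTB43 rose by 0.24 (SE 0.0724, adjusted p = 0.019) and 0.23 (SE 0.0813, adjusted p = 0.0439), with separate groups at 2, 4 and 10 h and at 2 and 4 h. ZBTB34 lost its call without replicate 2 of shControl at 6 h, and ZBTB43 lost it in 13 of the 20 fits that left out 1 library and with total counts, and 1 of its 4 tested protein-coding transcripts passed. The 12 members that did not pass ran from -0.19 (ZBTB26) to 0.21 (ZBTB9).

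**Figure D4:**
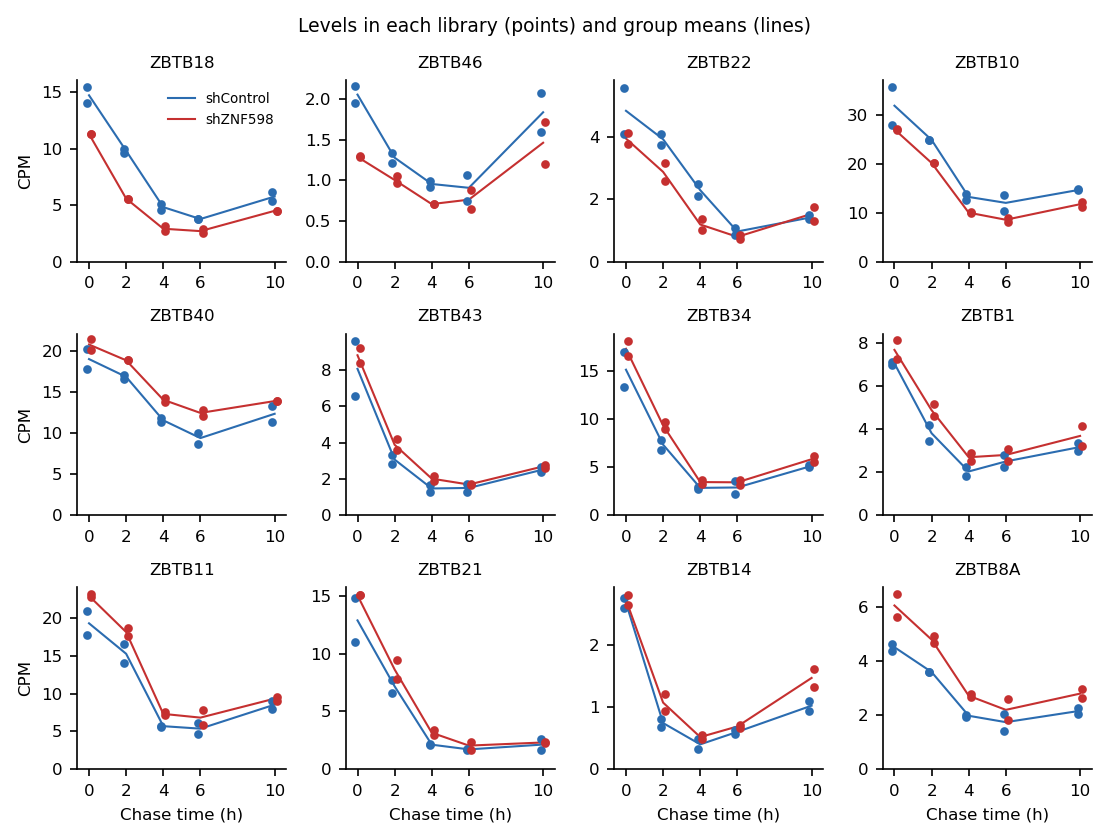
Level in CPM after TMM scaling (y axis, from 0) against chase time (x axis, h) for the 12 ZBTB genes that passed in the averaged comparison, shControl in blue and shZNF598 in red, with a point per library and lines through the means of 2. The red points of ZBTB18 and ZBTB10 lie below the blue ones at all 5 times.

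Several members lie near each other in the genome, and the genes of such pairs often differed in value. The distances given are between the transcripts that represent the genes. ZBTB1 and ZBTB25, 146 bp apart on opposite strands of chromosome 14, had averaged differences of 0.25 and -0.041. Other annotated transcripts of these genes overlap across the strands. ZBTB6 and ZBTB26 on chromosome 9, 2242 bp apart, had 0.20 and -0.19. ZBTB9 and ZBTB22 on chromosome 6, 136831 bp apart, had 0.21 and -0.37. For ZBTB8A and ZBTB8B on chromosome 1, 42740 bp apart, the values were 0.40 and 0.076. Both share same-strand exons with ENSG00000254553, in ZBTB8B over 11.5% of the exonic length, so these values are not fully separate measurements. ZBTB34 and ZBTB43 on chromosome 9, 22428 bp apart, had 0.24 and 0.23. Of the paired genes, only ZBTB1, ZBTB8A, ZBTB22, ZBTB34 and ZBTB43 passed in the averaged comparison. Tests of these differences within pairs were not made.

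The members' transcripts had a median 3′ UTR of 2985 nt against 1417 nt, a coding sequence of 1848 nt against 1416 nt and 4 exons against 9. Across the 39 members, the number of finger matches had Spearman correlations of 0.041 with the shControl slope and 0.13 with the slope difference. For 3′ UTR length they were 0.040 and -0.019. G or C at the third codon positions had 0.21 with the shControl slope and 0.43 with the slope difference. The genes share the same 20 libraries, so these values are descriptions only.

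**Figure D5:**
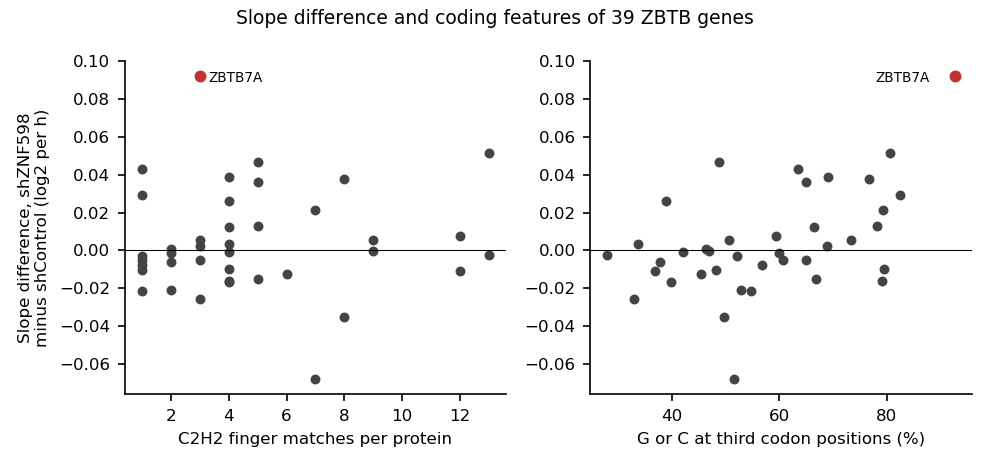
Slope difference between shZNF598 and shControl (y axis, log2 per h) against the number of C2H2 finger matches (left x axis) and the percentage of G or C at the third codon positions (right x axis), with a point per ZBTB gene and ZBTB7A in red. ZBTB7A has the highest slope difference, 0.092, and 92.6% G or C.

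Related genes were counted by the same rule, beside 14.3% of protein-coding genes that rose and 12.2% that fell in the averaged comparison. Of the 6 BTB zinc finger genes without a ZBTB symbol that passed the CPM limit, 3 rose and none fell in the averaged comparison. They were PATZ1 (0.32, adjusted p = 0.000142), ZNF131 (0.23, adjusted p = 0.00385) and MYNN (0.20, adjusted p = 0.0347), and the median shControl slope of the 6 was -0.190. BCL6 and HIC1 were below the limit. Of 24 BTB-Kelch genes, which have the BTB domain without zinc fingers and serve as CUL3 adaptors, 4 rose and 3 fell, with KLHL18 (-0.46), KLHL15 (0.36), KLHL9 (0.27), KLHL24 (0.30) and KLHL17 (-0.36) first by p, and their median shControl slope was -0.135. Of 382 ZNF genes, 58 rose and 22 fell, with ZNF770 (0.69), ZNF91 (-1.07), ZNF462 (-1.23), ZNF24 (0.41) and ZNF423 (-0.68) first, and the median slope was -0.122. No gene of these lists passed in the slope difference.

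The partners and targets of ZBTB proteins were mixed. Of 12 corepressor and cullin genes, those named here are TBL1XR1, which rose (0.17, adjusted p = 0.0321), and TBL1X, which fell (-0.25, adjusted p = 0.0104), both subunits of a corepressor complex with histone deacetylase activity, and the median shControl slope was -0.014. CUL3 was at -0.037 (adjusted p = 0.732). Of 4 genes known as ZBTB targets or partners, CDKN1A, the cell cycle inhibitor p21, fell (log2 difference -0.97, SE 0.0741, adjusted p = 1.75e-10), from 18.5 CPM in shControl to 10.6 CPM in shZNF598 at 0 h. MYC rose (0.24, SE 0.0810, adjusted p = 0.0397), while CDKN2B (0.070) and CDCA7 (-0.12), a target of ZBTB24, did not pass.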

How the data were processed

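BrU-labelled RNA from 22 HEK293T libraries was measured by BRIC-Seq. The authors deposited counts of reads per transcript, made with CASAVA 1.8, fastp, removal of noncoding reads, STAR 2.7.0a on hg38 and featureCounts with an earlier GENCODE release. The paper gives no setting for BRIC-Seq reads that overlap several isoforms, so isoforms may share reads. The strand setting of counting is not given in the sources used here. The authors' spike-in was not used. The deposited transcript length column served only for levels per kilobase.

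Groups were the shRNA and chase time of the labels. Rows whose mean reached 0.5 CPM were scaled by TMM and fitted with edgeR 4.0.16 (R 4.3.3), a quasi-likelihood test with Benjamini-Hochberg adjustment over all 96402 rows and a threshold of 0.05. One model had a mean for each group and the other had the shRNA, the hours of chase and their interaction. Half-lives used group levels fitted by DESeq2. The code was tested on simulated data. DESeq2 1.42.0, other scalings, filters and windows, and leaving out each library were the alternatives. Annotation and sequences came from GENCODE 44, in which 7 member transcripts matched only without their version. Every member was named within its role group. Full values went to ZBTB7A, to members past the threshold in a knockdown comparison (at most 10 by p), to the 5 most and 3 least negative shControl slopes, to the 3 largest differences of each kind in each direction, and to the 3 highest and 2 lowest levels per length. Of each comparison list, at most 5 called genes by p were named. A called gene of the corepressor list is not reported here. The members and lists were chosen with earlier results of these data known. Counts carry no molecular identifiers.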

Additional observations from a re-analysis of the deposited data

Results flagged for a closer look

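For 6 members the libraries of the shRNAs were separate at several times but in opposite directions (log2 difference, shZNF598 minus shControl). Whether these times differ was not tested, and the slope difference called none of the 6. The share of all protein-coding genes with separation in opposite directions was not counted. With 2 libraries per group, spread between libraries alone can separate the groups in either direction. Whether 6 members are more than such spread would give was therefore not tested. ZBTB3 was higher at 2 h (0.203) and lower at 4 h (-0.231). ZBTB4 was lower at 0 h (-0.12) and higher at 4 h (0.08) and 10 h (0.26). ZBTB6 was higher at 0 h (0.33), 2 h (0.334) and 4 h (0.444) and lower at 6 h (-0.381). ZBTB20 was lower at 4 h (-0.354) and higher at 6 h (0.295). ZBTB24 was higher at 2 h (0.182), 4 h (0.187) and 6 h (0.198) and lower at 10 h (-0.295). ZBTB33 was higher at 2 h (0.197) and lower at 10 h (-0.114).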

How the results depend on the processing

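The 12 members called in the averaged comparison were all called with DESeq2, DESeq2 size factors, a 1 CPM minimum and no filter. Total counts lost ZBTB43 and MANE Select rows lost ZBTB1 (11 calls each), and leaving out 1 library gave 10 to 15 calls. Declines ranged from 20 to 32 in shControl (20 without replicate 1 of 0 h) and 19 to 30 in shZNF598 when 1 library was left out. The shares of all transcripts in the fits that left out 1 library are not given. DESeq2 gave 22 and 21 declines, against 34.45% and 32.62% of all transcripts. A 0-24 h window left 2 and 2, against 14.7% and 13.07% of all transcripts. Leaving out the 0 h libraries, chosen like the MANE Select row after seeing the data, left 11 and 8, against 35.16% and 32.83%, so that under both settings the members' shares lay below those of all transcripts. Median slopes in shControl were -0.1226 with DESeq2 size factors, -0.2056 with total counts, -0.1424 at 1 CPM, -0.3902, -0.3149 and -0.02054 over 0-4, 0-6 and 0-24 h, -0.04793 without 0 h and -0.118 with DESeq2. In shZNF598 they were -0.1931 with total counts, -0.3714, -0.3024 and -0.009716 over the 3 windows, -0.05951 without 0 h, -0.142 for MANE Select rows and -0.117 with DESeq2. Leaving out 1 library gave -0.1771 to -0.1082 and -0.1677 to -0.1174, and -0.0313 to 0.04557 for the median slope difference, which was 0.02079 over 0-4 h. Half-lives with a fixed window covered 2 members (4.867 and 4.751 h), TMM scaling gave 2.691 h in shZNF598, and 1 replicate alone gave 31 to 34 members with medians of 2.477 to 2.519 h and 2.62 to 2.678 h.

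Slope differences changed sign for ZBTB14 without 0 h (-0.0003433), ZBTB17 over 0-4 h (-0.03594), ZBTB24 over 0-4 h (0.04222) and 0-6 h (0.03018), ZBTB33 over 0-4 h (0.003091) and ZBTB49 over 0-24 h (0.01876). shControl slopes did so for ZBTB12 with total counts (-0.02981) and over 0-4 h (-0.1358) and 0-6 h (-0.08052), for ZBTB16 likewise (-0.04298, -0.4231 and -0.3145), and for ZBTB2 with DESeq2 size factors (0.005997), over 0-24 h (0.04542), without 0 h (0.09353) and with DESeq2 (0.007596). Leaving out 1 library ranged from -0.6289 to 0.04571 for ZBTB7A at 0 h, -0.01288 to 0.1073, -0.09278 to 0.005345 and -0.05794 to 0.01578 for the slope differences of ZBTB14, ZBTB24 and ZBTB33, and -0.01142 to 0.06319, -0.04747 to 0.07451 and -0.06114 to 0.02673 for the shControl slopes of ZBTB12, ZBTB16 and ZBTB2. Causes were not tested. Over all transcripts the slope difference had 77 calls in edgeR and 469 in DESeq2, and 0 h had 332 and 518.

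Replicate numbers are shared between groups, but deviations of same-numbered libraries correlated at -0.005, 0.099, 0.303, 0.257 and -0.193 from 0 to 10 h, so they were not taken as pairs. With the replicate block 13 members were called (the same 12 and ZBTB48), and no slope difference. There were 31 and 28 declines, against 38.52% and 36.27% of all transcripts. Over all transcripts the block gave 426 calls at 0 h and 20145 averaged, against 332 and 19183.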
